A study of Mus musculus with 4 samples.

Results

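YAP and TAZ, the products of Yap1 and Wwtr1, are coactivators that the Hippo kinase pathway keeps out of the nucleus, and TEAD proteins are the factors through which they bind DNA. The 10 genes described here are these coactivators, the TEAD genes Tead1 and Tead2, and 6 genes that TEAD with YAP or TAZ is known to switch on or that feed back on the pathway: Lats2, Amotl2, Ajuba, Ccn1, Ccn2 and Ankrd1. They were taken by gene symbol, as every probe set annotated to 1 of these symbols alone. This gave 23 probe sets for all 10 genes, of 34945 probe sets with 1 gene symbol on the array. A further probe set that names Lats2 together with another gene was left out by that rule.

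The cells were immortalized mouse embryonic fibroblasts in which both alleles of Paxip1, the gene for PTIP (a subunit of histone methyltransferase complexes), are flanked by loxP sites. PTIP -/- cells had been infected with a retrovirus that expresses Cre recombinase, and PTIP +/+ cells carried the same floxed alleles and had received the empty vector. All cells were selected with puromycin and grown in medium with 10% serum. Each genotype gave 2 RNAs, numbered 1 and 2, for 4 arrays in all. The sources used here do not say whether a number marks a culture, an infection or a day, so p-values measure only the spread between these RNAs, which may be technical. Immortalized cells carry changes of their own, and whether they came from 1 clone or several embryos is not given either.

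In fibroblasts on stiff plastic with serum, YAP and TAZ are known to be largely nuclear and active. LATS kinases phosphorylate them, which holds them in the cytoplasm and marks them for breakdown, so their activity is set mostly on the protein and not through the amount of their own mRNA. Target genes such as Ccn1, Ccn2 and Ankrd1 are therefore the usual readout on an RNA array. An RNA level says nothing of where the proteins were.

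TEAD proteins bind a motif read as CATTCC on 1 strand and GGAATG on the other. Promoter sequences of 8 of the 10 genes were found in the RefSeq table of build GRCm38.p6, as windows from 250 bases before to 50 bases after each start site. The genes with no window were Tead1 and Ccn2. These 8 genes had 10 windows, and either form of the 6-letter motif stood in 8 of the 10, against 14.7% of all 32851 windows. The windows without it were that of Tead2 and 1 of the 2 of Lats2. The 2 windows of Wwtr1 overlap and share the same copy, so that by gene the motif stood in 7 of the 8. The windows of Ankrd1 and Ajuba, 2 of the 10, each held 2 copies, against 1.36% of all windows with 2 or more. The 250 bases before the start site are shown for these, the members whose signals differed most between the replicate numbers, and for Ccn1, a standard readout of the pathway. All are written 5′ to 3′ on the strand of the gene, which is the minus strand for each, with the motif in capitals.
Ankrd1 promoter, chr19:36119845-36120094: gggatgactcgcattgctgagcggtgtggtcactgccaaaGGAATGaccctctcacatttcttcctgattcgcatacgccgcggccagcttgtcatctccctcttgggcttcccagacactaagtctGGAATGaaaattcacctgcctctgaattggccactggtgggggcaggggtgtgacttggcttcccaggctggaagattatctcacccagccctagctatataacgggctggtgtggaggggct
Ajuba promoter, chr14:54577662-54577911: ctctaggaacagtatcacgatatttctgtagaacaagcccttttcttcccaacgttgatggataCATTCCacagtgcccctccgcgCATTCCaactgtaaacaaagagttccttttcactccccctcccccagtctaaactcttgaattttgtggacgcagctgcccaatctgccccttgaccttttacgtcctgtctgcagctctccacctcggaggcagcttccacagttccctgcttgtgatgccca
Ccn1 promoter, chr3:145649986-145650235: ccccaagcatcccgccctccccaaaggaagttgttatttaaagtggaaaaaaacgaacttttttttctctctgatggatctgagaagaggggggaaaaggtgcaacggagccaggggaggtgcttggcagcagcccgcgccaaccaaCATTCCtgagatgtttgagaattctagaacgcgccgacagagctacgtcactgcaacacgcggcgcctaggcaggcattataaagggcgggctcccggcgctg
The copies of Ankrd1 began 210 and 123 bases before the start site and read GGAATG. Those of Ajuba began 186 and 164 bases before it and read CATTCC, and the single copy of Ccn1 began 103 bases before it. A match describes these letters, and binding was not measured.

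Signals are linear array intensities, and differences are on the log2 scale. Each gene is read from 1 probe set, the brightest on average across the 4 arrays, and 12509 genes whose mean log2 signal reached that of 47.7, the 40th percentile of all probe sets, were tested with limma. All 10 genes, and all 23 of their probe sets, lay above that level. Paxip1, the deleted gene, gave signals of 43.5 and 74.6 in PTIP -/- cells, against 1029.5 and 1040.1 in PTIP +/+ cells. With every probe set tested by itself, this difference of -4.18 ± 0.37 (SE) did not pass (adjusted p = 0.9996 with limma). The median signal per array ran from 82.5 to 97.8 in PTIP -/- and from 75.8 to 83.2 in PTIP +/+. Centring every array on its median therefore lowers genotype differences between means of 2 arrays by 0.18. It raises those of number 2 over number 1 by 0.19. The shift is unequal within the numbers and within the genotypes. For Yap1 the genotype difference went from 0.016 to -0.22 in number 1 and from 0.38 to 0.26 in number 2. Its number difference went from 0.50 to 0.75 in PTIP -/- and from 0.14 to 0.27 in PTIP +/+. The median difference of all genes tested was 0.050 between genotypes and -0.048 between numbers. Fibroblast markers were present, all 8 of 8 being above the level, with summed signals of 148942 and 132308 in PTIP -/- cells, against 153620 and 159318 in PTIP +/+ cells. These sums rest mostly on the collagens, Vim and Fn1, and the surface markers Thy1 and Pdgfra were far lower on the arrays numbered 2. Below the level lay 4 of 7 epithelial markers, among them Cdh1, 3 of 5 endothelial markers, among them Pecam1, and 1 of 6 leukocyte markers, Ptprc. Above it lay the epithelial markers Epcam, Krt8 and Krt14 and the endothelial markers Cdh5 and Kdr. So did the leukocyte markers Csf1r, Cd68, Adgre1, Lyz2 and Cd14. Epcam read 220.4 to 436.1 over the 4 arrays and Csf1r 218.1 to 278.2. No marker was at 0 on any array.

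**Figure D1:**
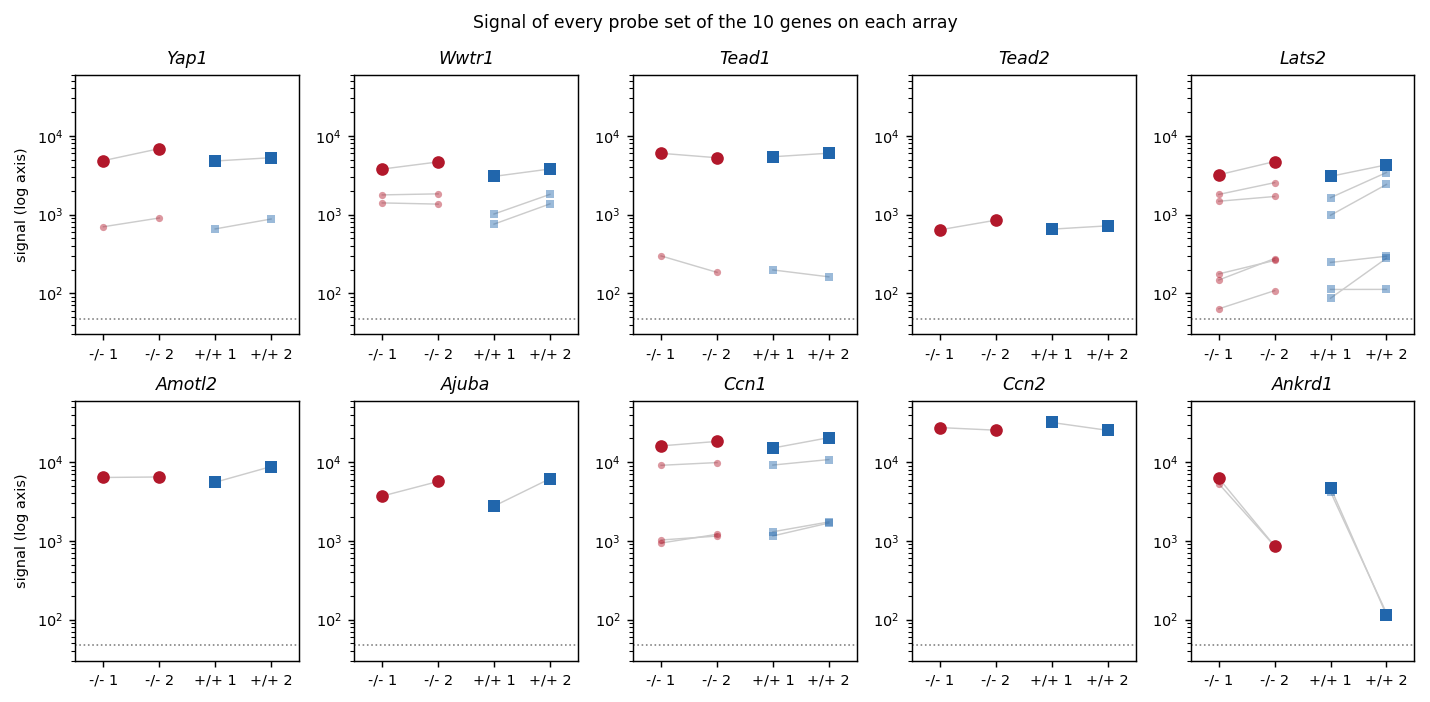
Signal of every probe set of the 10 genes on each array (log axis), with PTIP -/- arrays 1 and 2 as circles on the left and PTIP +/+ arrays 1 and 2 as squares on the right of each panel. Large symbols mark the brightest probe set of a gene, lines join the arrays of 1 genotype, and the dotted line is the level of 47.7. Ankrd1 is the gene whose signals spread most, with 858.9 and 114.8 on the arrays numbered 2.

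PTIP -/- cells held the coactivator and TEAD mRNAs at levels that could not be told from those of PTIP +/+ cells with 2 arrays each. Yap1 read 4841.2 and 6868.2 in PTIP -/- cells, against 4788.5 and 5269.2 in PTIP +/+ cells. The first PTIP -/- array lay between the PTIP +/+ arrays, so the genotypes overlapped. The difference was 0.20 ± 0.30 (SE, n = 2 each), with a 95% interval from -0.62 to 1.02. It was 0.016 within number 1 and 0.38 within number 2, and the second probe set of Yap1 gave 0.092 and 0.044.

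Wwtr1, the gene for TAZ, had the steadiest difference of the 10 on its brightest probe set. It read 3781.5 and 4660.1 in PTIP -/- cells, against 3053.0 and 3789.9 in PTIP +/+ cells. PTIP -/- was 1.24-fold higher within number 1 and 1.23-fold higher within number 2, yet the lower PTIP -/- array lay just under the higher PTIP +/+ array. The fit gave 0.30 ± 0.28 (SE) with an interval from -0.47 to 1.08. Its 2 other probe sets were 1.75-fold and 1.86-fold higher in PTIP -/- within number 1. Within number 2 they were level, with 1831.5 against 1803.8 on one and 1356.6 against 1365.6 on the other. With centred arrays the brightest probe set stood at 0.075 in number 1 and 0.18 in number 2.

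Tead1 encodes a TEAD factor common in mesenchymal cells. The brighter of its probe sets gave 5994.8 and 5265.1 in PTIP -/- cells, against 5417.7 and 6013.9 in PTIP +/+ cells. The genotype with the higher signal changed between the numbers, with 0.15 in number 1 and -0.19 in number 2. Over all arrays the difference was -0.023 ± 0.25 (SE), with an interval from -0.72 to 0.67. It turned to 0.030 under quantile normalization. A dimmer probe set of Tead1 gave 0.59 and 0.19. Tead2, a TEAD gene best known from the early embryo, read 639.7 and 848.4 in PTIP -/- cells, against 652.3 and 718.8 in PTIP +/+ cells. That is 0.11 ± 0.28 (SE), which turned to -0.072 with centred arrays.

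On their brightest probe sets, the regulators of the pathway among these genes did not separate by genotype either. Lats2 encodes a kinase that inhibits YAP and TAZ and is itself a target gene. The brightest of its probe sets gave 3198.1 and 4711.8 in PTIP -/- cells, against 3056.6 and 4279.7 in PTIP +/+ cells. Both genotypes were low in number 1 and high in number 2. The genotype difference was 0.10 ± 0.35 (SE), turning to -0.076 with centred arrays and to -0.065 over the mean of all probe sets of the gene. Its 6 probe sets did not share a direction: 1 was higher in PTIP -/- within both numbers, 2 were lower within both and 3 went opposite ways. The farthest were 1.70-fold higher and 1.76-fold lower in PTIP -/-, both within number 1 and both on dim probe sets. On the latter probe set the genotypes did not overlap, at 63.5 and 108.1 in PTIP -/-, against 111.9 and 112.1 in PTIP +/+. The brightest probe set of Lats2, like that of Ccn1, is of the x_at type, which by its name may also bind transcripts of other genes.

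Amotl2 encodes an angiomotin family protein that binds YAP outside the nucleus. It read 6380.3 and 6473.3 in PTIP -/- cells, against 5550.2 and 8775.4 in PTIP +/+ cells. The PTIP -/- arrays were almost level with each other, and both lay between the PTIP +/+ arrays. PTIP -/- was 1.15-fold higher within number 1 and 1.36-fold lower within number 2, for a difference of -0.12 ± 0.33 (SE). Ajuba encodes a LIM domain protein that binds LATS kinases and restrains them. It read 3705.2 and 5678.4 in PTIP -/- cells, against 2762.6 and 6155.0 in PTIP +/+ cells. Here too both PTIP -/- arrays lay between the PTIP +/+ arrays, with 1.34-fold higher in number 1 and 1.08-fold lower in number 2. The difference was 0.15 ± 0.51 (SE), and -0.024 with centred arrays.

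The brightest probe sets of the secreted CCN targets overlapped between the genotypes. Ccn2, formerly Ctgf, a matricellular protein of fibrosis, read 27445.8 and 25433.8 in PTIP -/- cells, against 31876.6 and 25321.8 in PTIP +/+ cells. PTIP +/+ number 1 stood above the other 3 arrays, which were close together. The difference was -0.10 ± 0.27 (SE), with an interval from -0.84 to 0.63, and it turned to 0.055 under quantile normalization. Ccn1, formerly Cyr61, an integrin ligand induced early by serum, read 16066.4 and 18317.6 in PTIP -/- cells, against 15095.2 and 20432.3 in PTIP +/+ cells. The PTIP -/- arrays lay inside the range of the PTIP +/+ arrays, and the difference was -0.034 ± 0.29 (SE), turning to 0.083 under quantile normalization. The other 3 probe sets of Ccn1 were lower in PTIP -/- within both numbers, by 1.01-fold to 1.27-fold in number 1 and 1.09-fold to 1.51-fold in number 2. On 1 of these the genotypes did not overlap, at 1024.8 and 1149.8 in PTIP -/-, against 1303.6 and 1738.9 in PTIP +/+. The sources used here do not place it within the transcript.

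Ankrd1 was the member with a large genotype difference, which lay within number 2. It encodes a stretch-induced ankyrin repeat protein of muscle and fibroblasts. It read 6247.5 and 858.9 in PTIP -/- cells, against 4747.7 and 114.8 in PTIP +/+ cells. The arrays numbered 1 were high in both genotypes and those numbered 2 were low, PTIP +/+ far more so. PTIP -/- was 1.32-fold higher within number 1 and 7.48-fold higher within number 2. A second probe set, at 5308.3 and 856.4 in PTIP -/- cells and 4182.4 and 120.9 in PTIP +/+ cells, gave 1.27-fold and 7.08-fold. The mean log2 signal was 11.18 ± 2.02 in PTIP -/- and 9.53 ± 3.80 in PTIP +/+ (SD, n = 2 each). The mean difference of 1.65 ± 2.12 (SE) had an interval from -4.13 to 7.43, and limma gave adjusted p = 0.999. That error includes the fall from number 1 to number 2. With the number added to the fit as a block, limma gave unadjusted p = 0.0833, against 0.478 without it, and adjusted p = 0.601. Without PTIP +/+ replicate 2 the difference was -1.04, and without PTIP +/+ replicate 1 it was 4.33. Within number 2, 64 of the 12509 genes had a difference as high as that of Ankrd1 or higher, itself included. Ankrd1 is also expressed in skeletal muscle. Markers of that tissue summed to 437.3 and 441.8 in PTIP -/- cells, against 381.4 and 260.0 in PTIP +/+ cells. Myod1 and Myog lay below the level, and Des, Ckm and Actn3 above it. The part of these markers in the Ankrd1 difference was not tested.

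**Figure D2:**
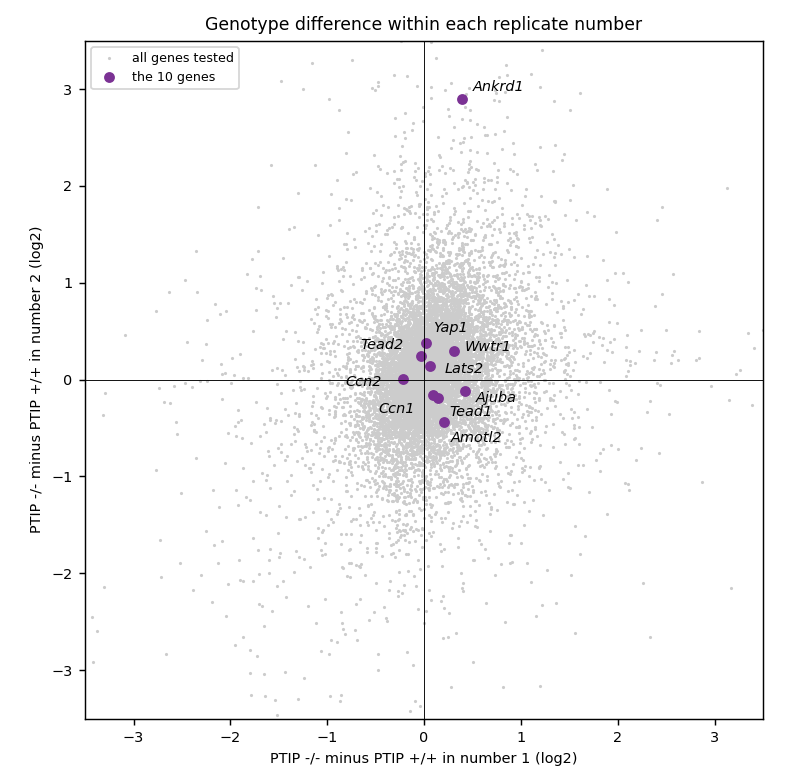
Difference of PTIP -/- minus PTIP +/+ (log2) within number 1 (horizontal) and within number 2 (vertical), 1 array of each genotype per value, for all genes tested (grey) and the 10 genes (purple). Ankrd1 stands at 0.40 and 2.90, and the other 9 genes lie between -0.44 and 0.42 on both axes. Beyond the axes lie 64 genes.

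Of the 10 genes, 0 passed between genotypes at an adjusted p under 0.05 with limma (adjusted p = 0.999 for each), as did 0% of all genes tested. Paxip1, the deleted gene, was tested and did not pass either, so such an adjusted p does not show equal levels. At an unadjusted p under 0.05 there were 0 of 10, against 2.29% of all genes. Groups that did not overlap, with both PTIP -/- arrays higher or both lower, were found for 0 of the 10 brightest probe sets, where all genes gave 16.6% higher and 12.1% lower. In no gene of the 10 was PTIP -/- at least 1.5-fold higher, or at least 1.5-fold lower, within both numbers, against 3.44% and 2.21% of all genes. Yap1, Wwtr1, Lats2 and Ankrd1 were higher in PTIP -/- within both numbers by any amount, 4 of 10 against 33.9% of all genes. None of the 10 was lower within both, against 25.8%, and the other 6 went opposite ways, against 40.2%. With centred arrays 2 were higher within both numbers, Wwtr1 and Ankrd1, against 16.7% of all genes, and 4 were lower within both, against 43.1%. These shares are counts, and with 10 genes they carry no test. The median difference of the 10 was 0.10, beside 0.050 for all genes, at 0.12 within number 1 and 0.073 within number 2. Leaving out 1 array moved the median, to 0.26 without PTIP -/- replicate 1, -0.076 without PTIP -/- replicate 2, -0.031 without PTIP +/+ replicate 1 and 0.20 without PTIP +/+ replicate 2. Whether a genotype difference itself differed between the numbers could not be tested, since each number holds 1 array per genotype.

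**Figure D3:**
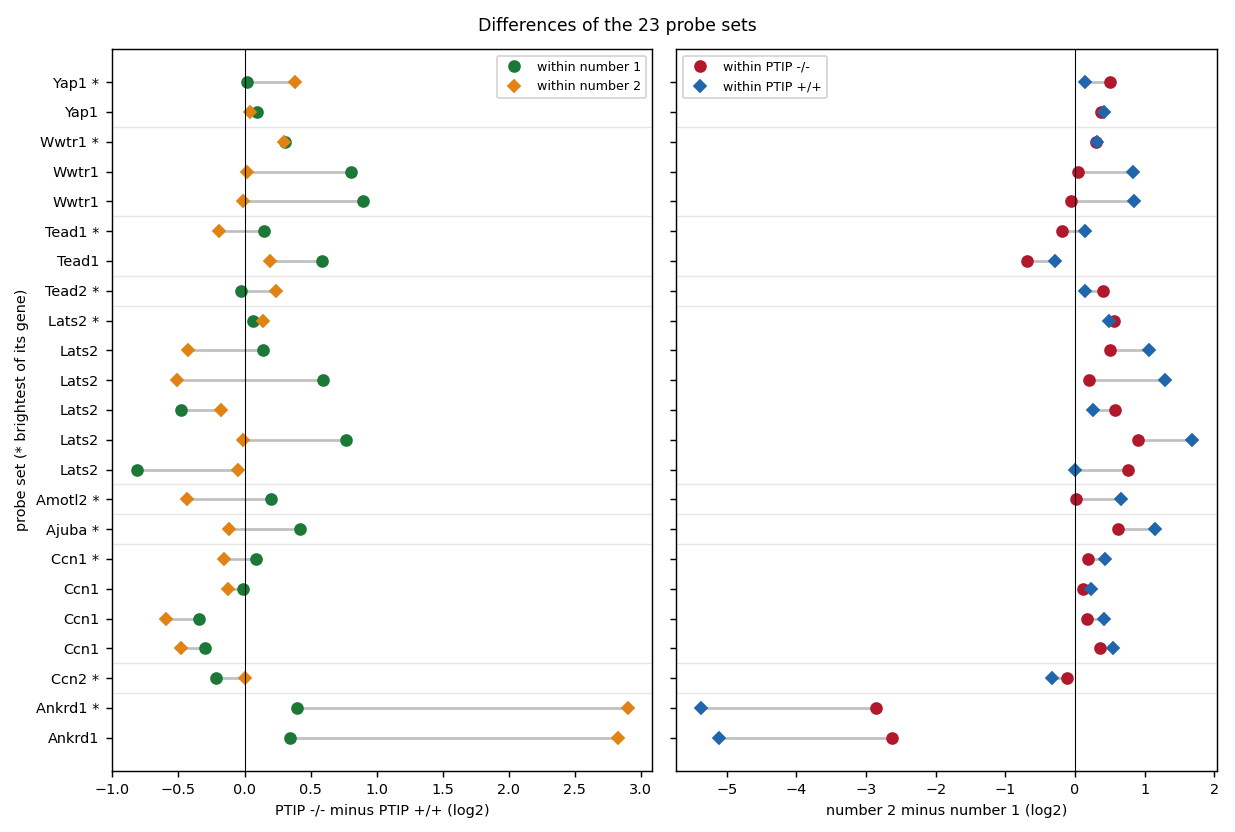
Differences of all 23 probe sets (log2), 1 row each, with an asterisk on the brightest of a gene. The left panel gives PTIP -/- minus PTIP +/+ within number 1 (circles) and number 2 (diamonds), the right panel number 2 minus number 1 within PTIP -/- (circles) and PTIP +/+ (diamonds). In the right panel all 6 probe sets of Lats2 and all 4 of Ccn1 lie above 0 and both of Ankrd1 far below it.

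The replicate numbers set these genes apart more than the genotypes did. Most of the 10 were higher on the arrays numbered 2, while Ankrd1 was far lower there. In number 2 Ankrd1 read 858.9 in PTIP -/- and 114.8 in PTIP +/+, against 6247.5 and 4747.7 in number 1. That is 7.27-fold lower in number 2 within PTIP -/- and 41.4-fold lower within PTIP +/+. The fit of number 2 against number 1 gave -4.12 ± 1.01 (SE, n = 2 each), with an interval from -6.81 to -1.42. It did not pass (adjusted p = 0.16 with limma), though only 31 of 12509 genes, itself included, had a difference as low or lower. Without PTIP -/- replicate 2 the difference was -5.57 and passed with limma. Its adjusted p ran from 0.0414 there to 0.458 over the alternatives.

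Ajuba went the other way. In number 2 it read 5678.4 in PTIP -/- and 6155.0 in PTIP +/+, against 3705.2 and 2762.6 in number 1. Both arrays numbered 2 lay above both numbered 1, by 1.53-fold within PTIP -/- and 2.23-fold within PTIP +/+. The difference was 0.89 ± 0.24 (SE), with an interval from 0.25 to 1.53 and adjusted p = 0.173 with limma. Lats2 was 1.47-fold higher in number 2 within PTIP -/- and 1.40-fold higher within PTIP +/+ (0.52 ± 0.19, SE; adjusted p = 0.245). All 6 of its probe sets were higher in number 2 within both genotypes, against 33% of all genes. On 1 of them PTIP +/+ was all but level, at 112.1 against 111.9. On 5 of the 6 the arrays numbered 2 lay above without overlap, against 25.5% of all genes. Probe sets of 1 gene are not independent of each other. The farthest probe set of Lats2, at 276.3 and 278.6 in number 2 against 147.5 and 86.6 in number 1, was 1.87-fold and 3.22-fold higher.

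On their brightest probe sets the coactivators were a little higher in number 2. Yap1 differed by 0.32 ± 0.23 (SE) and Wwtr1 by 0.31 ± 0.24 (SE). The second probe set of Yap1 was higher by 0.37 within PTIP -/- and 0.42 within PTIP +/+. The other probe sets of Wwtr1 were higher in number 2 within PTIP +/+ (0.83 and 0.85) and level within PTIP -/- (0.044 and -0.051). Tead2 differed by 0.27 ± 0.20 (SE), Ccn1 by 0.31 ± 0.20 (SE) and Amotl2 by 0.34 ± 0.25 (SE). Amotl2 was 1.58-fold higher in number 2 within PTIP +/+ and 1.01-fold higher within PTIP -/-. Ccn2 was lower in number 2, by 1.08-fold within PTIP -/- and 1.26-fold within PTIP +/+ (-0.22 ± 0.20, SE). With centred arrays Ccn2 differed by -0.031, at 0.14 within PTIP -/- and -0.20 within PTIP +/+. Tead1 differed by -0.018 ± 0.20 (SE), or 0.17 with centred arrays. Its dimmer probe set was lower in number 2, at 184.5 (PTIP -/-) and 161.8 (PTIP +/+), against 298.1 and 198.0 in number 1. The related genes Ccn1 and Ccn2 stood on opposite sides of 0, each with an interval that included 0.

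**Figure D4:**
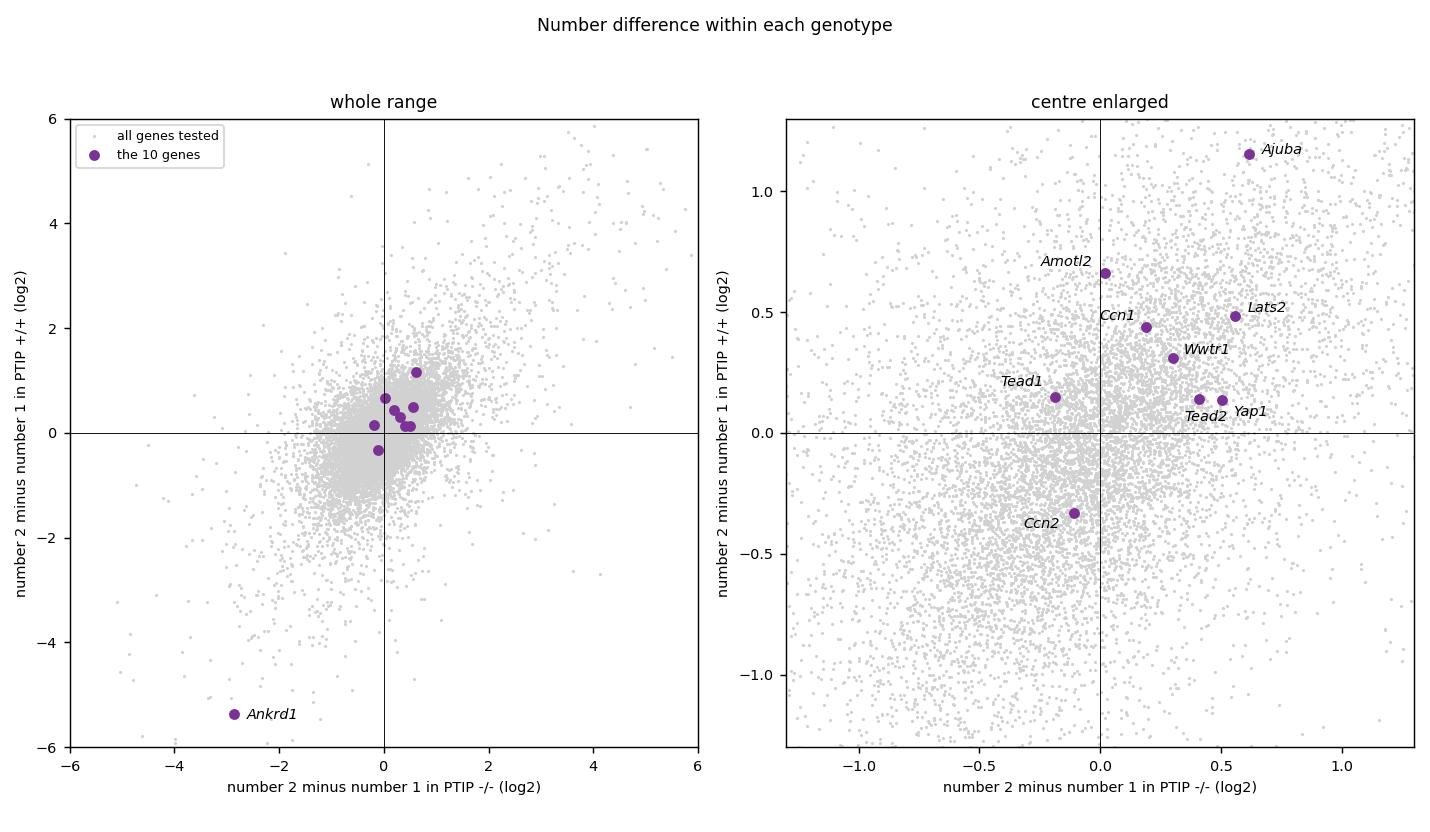
Difference of number 2 minus number 1 (log2) within PTIP -/- (horizontal) and within PTIP +/+ (vertical) for all genes tested (grey) and the 10 genes (purple), over the whole range on the left and enlarged around 0 on the right. Ankrd1 lies at -2.86 and -5.37. Ajuba is highest of the 10 at 0.62 and 1.16. Beyond the axes of the left panel lie 52 genes.

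Between the numbers 0 of the 10 genes passed at an adjusted p under 0.05 with limma, against 0.656% of all genes tested. At an unadjusted p under 0.05 there were 3 of 10, Ankrd1, Ajuba and Lats2, against 20.4% of all genes. The arrays numbered 2 lay above those numbered 1 without overlap for 7 genes and below for 2, Ankrd1 and Ccn2, where all genes gave 25.5% above and 29.7% below. With quantile normalization these counts were 6 and 2, against 27.1% and 27.9%, and with centred arrays 7 and 1, against 35.3% and 17.7%. At least 1.5-fold within both genotypes, Ajuba was higher, against 9.24% of all genes, and Ankrd1 lower, against 8.87%. The median of the 10 was 0.31, where all genes had -0.048, at 0.25 within PTIP -/- and 0.23 within PTIP +/+. It was 0.50 with centred arrays, where all genes had 0.14, and 0.16 without PTIP -/- replicate 2. Some cell type markers also moved with the number. Thy1, a fibroblast surface protein, read 1500.7 (PTIP -/-) and 239.2 (PTIP +/+) in number 2, against 14822.9 and 16080.1 in number 1. It was 9.88-fold lower in number 2 within PTIP -/- and 67.2-fold lower within PTIP +/+, and like Ankrd1 it was lowest on PTIP +/+ number 2 (-4.69 ± 0.91, SE; adjusted p = 0.121 with limma). Pdgfra, a receptor of fibroblasts, read 174.2 (PTIP -/-) and 583.2 (PTIP +/+) in number 2, against 3563.4 and 5010.1 in number 1 (-3.73 ± 0.64, SE; adjusted p = 0.104). The other 6 fibroblast markers had differences between -0.31 and 0.30. The 7 epithelial markers summed to 510.2 (PTIP -/-) and 474.7 (PTIP +/+) in number 2, against 857.0 and 647.5 in number 1. The 6 leukocyte markers summed to 705.7 (PTIP -/-) and 537.3 (PTIP +/+) in number 2, against 954.2 and 776.8 in number 1, though Cd68 was higher in number 2 within both genotypes. The sums of the other 2 lists did not share a direction. Endothelial markers summed to 222.2 (PTIP -/-) and 277.8 (PTIP +/+) in number 2, against 357.6 and 224.5 in number 1, and skeletal muscle markers to 441.8 and 260.0, against 437.3 and 381.4. Their part in these differences was not tested. In bulk RNA fewer cells that express a gene and less RNA per cell cannot be told apart.

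The wider pathway was read from lists of other Hippo, TEAD and target genes. Of 26 upstream kinases and regulators 24 were tested and the other 2 were not analysed here. Between genotypes 0 of the 24 passed, 16 being higher in PTIP -/- and 8 lower around a median of 0.047, beside 0.050 for all genes. With centred arrays the median was -0.13, again that of all genes. Frmd6, a FERM domain protein placed upstream of the kinases, read 2230.7 and 2014.2 in PTIP -/- cells, against 3574.4 and 3531.1 in PTIP +/+ cells. Its arrays did not overlap, and 12.1% of all genes were lower in PTIP -/- in that way. It was 1.68-fold lower in PTIP -/- on average (-0.75 ± 0.25, SE), with adjusted p = 0.999 by limma. Dchs1, a protocadherin and ligand of Fat4, read 107.6 and 103.6 in PTIP -/- cells, against 15.0 and 88.7 in PTIP +/+ cells. Its difference rests on the dim signal of PTIP +/+ number 1.

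Fat4, an atypical cadherin that signals to the Hippo pathway in Drosophila as Fat, was the 1 gene of these lists that passed between the numbers. In number 2 it read 2711.9 in PTIP -/- and 3620.1 in PTIP +/+, against 254.7 and 148.1 in number 1. It rose in number 2 by 4.01 ± 0.35 log2 (SE; adjusted p = 0.0396 with limma). Over 13 alternatives its difference ran from 3.62 to 4.40. It passed in 7 of them, with the lowest adjusted p, 0.00772 with limma, for centred arrays. The 6 in which it did not pass were no level filter (adjusted p = 0.147 with limma), genotype as a block (0.0666) and each of the 4 arrays left out. Across the upstream list 5 genes (20.8%) were at least 1.5-fold higher in number 2 within both genotypes and 1 (4.17%) lower, against 9.24% and 8.87% of all genes, and the median was 0.26 where all genes had -0.048.

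Among the other TEAD genes and their cofactors, 5 of 6 were tested and Vgll1 lay below the level. Vgll4, a TEAD-binding protein that competes with YAP, read 400.5 and 556.1 in PTIP -/- cells, against 250.6 and 315.8 in PTIP +/+ cells. The genotypes did not overlap, and 16.6% of all genes were higher in PTIP -/- in that way. PTIP -/- was 1.68-fold higher (0.75 ± 0.31, SE), with adjusted p = 0.999 by limma. Tead4 read 72.5 and 82.4 in PTIP -/- cells, against 92.2 and 181.3 in PTIP +/+ cells, 1.67-fold lower in PTIP -/- but near the level filter. Neither gene passed, between genotypes or between numbers, nor did Tead3, Vgll2 or Vgll3.

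Of the 6 LIM proteins related to Ajuba and zyxin, 0 passed in either comparison. Fblim1, which links filamin to adhesions, read 1448.0 and 1727.9 in PTIP -/- cells, against 921.1 and 340.2 in PTIP +/+ cells. Like Ankrd1 it was lowest in PTIP +/+ number 2, with 0.65 in number 1 and 2.34 in number 2. Trip6, another zyxin relative, differed by -0.23 ± 0.25 (SE). Wtip, of the same protein family as Ajuba, was higher in number 2, with 2990.8 (PTIP -/-) and 1447.9 (PTIP +/+) there, against 831.4 and 1003.5 in number 1. Lpp was lower there, with 9515.5 (PTIP -/-) and 7972.2 (PTIP +/+), against 11593.5 and 10520.6 in number 1.

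The other CCN genes spread farther than Ccn1 and Ccn2. Ccn6 lay below the level, and 0 of the other 3 passed in either comparison. Ccn3, a growth-restraining member formerly called Nov, read 1414.9 in PTIP -/- and 3787.0 in PTIP +/+ in number 2, against 95.0 and 90.6 in number 1. It was 25.0-fold higher in number 2 and did not pass (4.64 ± 0.51, SE; adjusted p = 0.0553 with limma). Ccn4, a Wnt-induced member, was 4.93-fold lower in number 2 (adjusted p = 0.164), with 2477.6 (PTIP -/-) and 795.4 (PTIP +/+) there, against 7138.8 and 6715.5 in number 1. Its genotype difference was 0.088 within number 1 and 1.64 within number 2. Ccn5 read 7742.9 and 3153.5 in PTIP -/- cells, against 8375.8 and 9307.7 in PTIP +/+ cells, the low array being PTIP -/- number 2.

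Other genes reported as YAP and TAZ targets, mostly in human cells, numbered 29, of which 28 were tested and 1 was not analysed here. Between genotypes 0 passed, with 11 higher and 17 lower in PTIP -/- around a median of -0.041. Nuak2, a kinase of actomyosin tension, read 453.0 and 396.1 in PTIP -/- cells, against 1082.1 and 691.9 in PTIP +/+ cells. The genotypes did not overlap, and 12.1% of all genes were lower in PTIP -/- in that way. PTIP -/- was 2.04-fold lower (-1.03 ± 0.33, SE), with adjusted p = 0.999 by limma. Birc5, survivin, a gene of dividing cells, read 4074.3 and 2436.7 in PTIP -/- cells, against 4725.5 and 6828.9 in PTIP +/+ cells, and its difference lay mostly in number 2. At least 1.5-fold lower within both numbers was 1 of the 28, Nuak2 (3.57%, against 2.21% of all genes), and 0 were as much higher, against 3.44%. With centred arrays 2 (7.14%) were at least 1.5-fold lower, against 4.44% of all genes.

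Between the numbers 0 of these 28 targets passed, 14 being higher and 14 lower in number 2 around a median of 0.036. At least 1.5-fold within both genotypes, 8 (28.6%) were higher and 1 (3.57%) lower, against the 9.24% and 8.87% of all genes. Ptpn14 and Amotl1 stand in this list and in the upstream one, so the lists are not separate. Ptpn14 counts among the higher genes of both, with 0.79 within PTIP -/- and 1.13 within PTIP +/+. Dlc1, a RhoGAP, read 2865.0 (PTIP -/-) and 3033.4 (PTIP +/+) in number 2, against 570.6 and 858.0 in number 1, 4.21-fold higher (adjusted p = 0.0754 with limma). Ctnnal1 was 3.53-fold higher (adjusted p = 0.0754). The 17 genes of the actin cytoskeleton driven by SRF and its MRTF coactivators, a programme that shares genes and stimuli with YAP, gave 0 calls in either comparison. Their genotype median was -0.096, with Cnn1, calponin, at 5736.7 and 7979.6 in PTIP -/- cells, against 4196.2 and 2757.7 in PTIP +/+ cells, and Filip1l at 0.55 ± 0.43 (SE). Between numbers Actg2, an actin of smooth muscle, was 6.79-fold lower in number 2, with 2730.8 (PTIP -/-) and 1584.1 (PTIP +/+) there, against 14633.2 and 13613.6 in number 1 (adjusted p = 0.0601 with limma). Vcl, vinculin, was 1.83-fold higher in number 2 (adjusted p = 0.153).

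**Figure D5:**
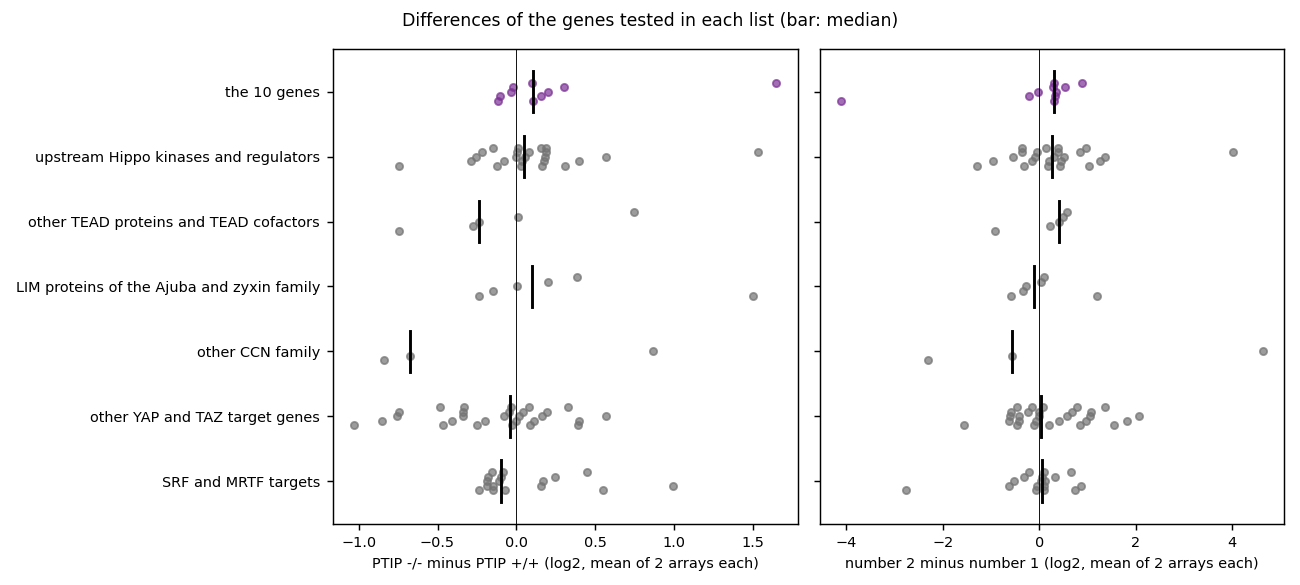
Differences of the genes tested in each list (log2), PTIP -/- minus PTIP +/+ on the left and number 2 minus number 1 on the right, 1 point per gene from the means of 2 arrays each, with the list median as a bar. The medians of the genotype panel lie between -0.68 and 0.10. Among the 10 genes Ankrd1 stands alone at 1.65 and -4.12.

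The genes whose pattern over the 4 arrays was most like that of Ankrd1, by the Euclidean distance between centred log2 signals, were Ctla2a, Qpct and Ppargc1b. Ctla2a, nearest at 0.52, read 1585.1 and 154.2 in PTIP -/- cells, against 1133.2 and 33.7 in PTIP +/+ cells. Qpct lay at 0.54 and Ppargc1b at 0.54, and all 3 fell under the level of 47.7 in PTIP +/+ number 2. For Ccn1 the nearest were Fis1 at 0.025, Churc1 at 0.037 and Tfdp2 at 0.039. For Ccn2 they were Tra2b at 0.025, Arglu1 at 0.029 and Aifm1 at 0.032. Distances over 4 arrays are small for any gene whose signal varied little.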

How the data were processed

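RNA of 4 samples was read on Affymetrix arrays. The deposited intensities are linear, 1 per probe set and array, and RMA, without a version, is the tool listed per the submitters' processing notes; their mean without the top and bottom 2% was 500.0 on every array, so the arrays appear scaled to a common trimmed mean. The sources used here do not give the background correction. Intensities were taken to log2 (1 value of 0 set to 0.1), 64 control probe sets were left out, and symbols were updated through gene numbers in RefSeq (GRCm38.p6). Each of 18193 genes was represented by its brightest probe set and tested where its mean log2 value reached the 40th percentile (12509 genes). limma 3.58.1 in R 4.3.3 (lmFit, eBayes) compared 2 PTIP -/- with 2 PTIP +/+ arrays, and separately numbers 2 and 1, with no covariate, 2 residual degrees of freedom and Benjamini-Hochberg adjustment over all genes tested. An exact permutation test of 2 against 2 arrays cannot go below p = 0.333. The fitting code was tested on simulated data with known changes, as a check of the code and not of what 2 arrays a group can detect. Within a number or a genotype 1 array stands against 1, with no test. The number of arrays limits the precision.

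The 10 genes and all lists were chosen with earlier results of these data known. The genes named from other lists are those that passed (up to 4), otherwise the 2 farthest with 1 sign in both numbers or both genotypes; the genes named as nearest in pattern are the 3 closest. The alternatives were quantile normalization, median centring, no level filter and one at the 60th percentile, a robust variance trend, all probe sets of a gene averaged, every probe set by itself, signals raised to the level filter, the other factor as a block, and each array left out.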

Additional observations from a re-analysis of the deposited data

Results flagged for a closer look

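For 6 of the 10 genes PTIP -/- was higher than PTIP +/+ in 1 replicate number and lower in the other. The genotype difference in number 2 minus that in number 1 was -0.64 log2 for Amotl2, -0.54 for Ajuba, -0.34 for Tead1, -0.25 for Ccn1, 0.27 for Tead2 and 0.22 for Ccn2. Each value rests on 1 array of each genotype per number, whether the genotype differences differ from each other was not tested, and 40.2% of all genes tested changed sign in the same way.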

How the results depend on the processing

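Between genotypes 0 genes passed as reported and under all 13 alternatives, the replicate block among them (0 called, 982 at an unadjusted p under 0.05 against 286 without it; the lowest adjusted p of the 10 genes was 0.601, for Ankrd1). Over the alternatives 164 to 982 genes had an unadjusted p under 0.05. The numbers share only a number in the labels: deviations from the genotype means correlated at 0.69 across genes, which are not independent. Of 130 member values between genotypes under alternatives, 109 kept their direction and 21 turned, none past the threshold. The level filters, the robust variance trend, every probe set by itself, raised signals and the block left each member's difference unchanged. Values under those settings could not turn. With quantile normalization Tead1 was 0.030, Ccn1 0.083 and Ccn2 0.055. With centred arrays Tead2 was -0.072, Lats2 -0.076, Ajuba -0.024 and the median of the 10 genes -0.074. With the probe sets of a gene averaged, Tead1 was 0.18 and Lats2 -0.065. The cause was not tested. Leaving out each array in turn gave ranges of -0.053 to 0.45 for Yap1, -0.12 to 0.071 for Tead1, -0.098 to 0.31 for Tead2, -0.18 to 0.38 for Lats2, -0.45 to 0.21 for Amotl2, -1.04 to 4.33 for Ankrd1, -0.25 to 0.18 for Ccn1, -0.27 to 0.061 for Ccn2, -0.42 to 0.73 for Ajuba and -0.076 to 0.26 for the median; it also leaves the numbers unequal between the genotypes.

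Between the numbers the 82 calls became 127 with quantile normalization, 361 with centred arrays, 0 with no level filter, 145 at the 60th percentile, 284 with a robust variance trend, 51 over the mean of probe sets, 143 of 23051 probe sets, 226 with raised signals, 80 with genotype as a block and 0 to 85 with an array left out (0 without PTIP -/- replicate 1, PTIP +/+ replicate 1 or PTIP +/+ replicate 2, 85 without PTIP -/- replicate 2). The settings with 0 calls by limma had 1265 to 2505 genes at an unadjusted p under 0.05. The cause was not tested. Where an array is left out, the lone array of an arm is assumed to vary like the others. The calls split into 61 higher and 21 lower, 90 and 37 with quantile normalization, and 271 and 90 with centred arrays. The median of the 10 genes was 0.29 with quantile normalization, 0.50 with centred arrays, 0.32 over the mean of probe sets and 0.16 to 0.34 with an array left out. Tead1 turned to 0.17 with centred arrays and ran from -0.11 to 0.078 with an array left out. The level filters, robust variance trend, single probe sets, raised signals and block again left each member's difference unchanged. Values under those settings could not turn. Of 130 member values, 126 kept their direction and side of the threshold, 3 of Tead1 turned, and 1 of Ankrd1 passed (-5.57 without PTIP -/- replicate 2).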
